A study of Homo sapiens with 18 samples.

Results

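The transcripts described here are 10 keratins of airway and lung epithelium, KRT5, KRT6A, KRT7, KRT8, KRT14, KRT15, KRT17, KRT18, KRT19 and KRT80. They were listed by symbol and all 10 were found by Entrez number among the 18475 genes of the deposited table, which also holds 29 other keratin genes. The study compared lung epithelial and lung cancer cells before and after ionizing radiation by RNA-seq. BEAS-2B is a human bronchial epithelial line, H446 a small cell lung cancer line and A549 a non-small cell lung cancer line, and all 3 lines are labelled wild type. Each line had 3 unirradiated control libraries and 3 libraries of cells that received 10 Gy of X-rays and were harvested after 24 h. That gave 18 libraries in 6 groups. No harvest time is given for the controls, so time in culture may differ between the groups and cannot be told apart from radiation. Nothing in the labels says that the libraries of a group came from separate cultures, so the p-values measure the spread between these libraries, which may be technical. Each line is a single established cell line, and the values describe these cells in culture.

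Keratins are the intermediate filament proteins of epithelial cells. A filament is built from pairs of an acidic type I and a basic type II keratin, and the composition of the pairs changes with the kind of epithelium and its state. KRT8 (type II) and KRT18 (type I) are the pair of simple epithelia, and KRT7 (type II) and KRT19 (type I) are found with them in ducts and airways. KRT5 (type II) and KRT14 (type I) are the pair of basal cells, where KRT15 (type I) is found as well. KRT6A (type II) and KRT17 (type I) are induced in injured or stressed epithelium, and KRT80 (type II) lies near desmosomes and at the cell margin of differentiated cells. The members were thus 5 type I and 5 type II keratins.

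The type II genes and KRT18 form one cluster of 6 members on chromosome 12, and the other 4 type I members lie on chromosome 17. In GENCODE 29 on GRCh38, KRT80 spans chr12:52168996-52192000 on the minus strand, KRT7 chr12:52233114-52248921 on the plus strand, KRT8 chr12:52897194-52906618 on the minus strand and KRT18 chr12:52948964-52952901 on the plus strand. KRT19 spans chr17:41523617-41528308 and KRT17 chr17:41619442-41624575, both on the minus strand. The keratins share sequence, which matters for reads of 50 bases.

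A read of 50 bases from most of KRT7, KRT19, KRT80, KRT5 and KRT15 names its gene, since 10.8%, 1.79%, 0.416%, 3.99% and 0.725% of the 50-base windows of these transcripts also occur in another gene of the annotation. For KRT7 nearly all of that share is the antisense gene KRT7-AS. KRT8 shared 37.1% and KRT18 shared 47.6% of its windows, many of them with processed copies such as KRT8P3 and KRT18P11, and 21.6% of the KRT18 windows also lie in a longer KRT8 transcript model on the opposite strand. The strand setting of the libraries is not given in the sources used here, so reads from the overlap of KRT8 and KRT18 cannot be told apart. KRT17 shared 17.4%, KRT14 23.8% and KRT6A 39.1% of windows. KRT14 shared most with KRT16 (11.2% of its windows, with a run of 158 bases) and KRT6A with KRT6C and KRT6B. The run with KRT17 is shown because KRT17 was abundant in H446, the 1 line with KRT14 above 0. The longest run that KRT14 shares with KRT17 lies in exon 4 of KRT14 at chr17:41583776-41583834 on the minus strand, is 59 bases long and is longer than a read.
KRT14: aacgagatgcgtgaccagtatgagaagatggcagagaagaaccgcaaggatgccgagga
Low values of KRT14 in cells rich in KRT17 are therefore uncertain, and levels of KRT8 and KRT18 depend on how the authors' counting shared reads.

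The values are taken to be FPKM, that is, fragments scaled to the length of the transcript and to the mapped reads of the library, so levels of different genes are compared per length. Library totals ran from 461255 to 529936 FPKM, and the depth of the libraries is unknown because no counts were given. Of the neuroendocrine markers typical of small cell lung cancer, 0 of the 6 found in the table reached a mean of 1 FPKM in the H446 controls, where their summed level was 0.19 to 0.41 FPKM against 8.80 to 9.92 in A549. Airway basal cell markers summed to 10.3 to 13.8 FPKM in the BEAS-2B controls, mostly PDPN, with KRT14 at 0, to 2.94 to 3.35 in H446 and to 1.35 to 1.61 in A549. Alveolar type II markers summed to 9.15 to 9.64 FPKM in A549, mostly ABCA3, with SFTPA1 at 0. In the control libraries PDPN was the only basal marker with a mean of at least 1 FPKM in BEAS-2B, and ABCA3 the only alveolar one in A549. In BEAS-2B, 10 Gy replicate 2 stood apart, since the median change of 10 p53 target genes against the control mean was 0.02 on the log2 scale in that library and 0.86 and 1.14 in the other irradiated ones.

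All 3 lines had the keratins of simple epithelium, and KRT5 of the basal pair was at or near 0 in each. KRT8 in the unirradiated cells was 517, 548 and 500.3 FPKM in BEAS-2B, 1359, 1352 and 1393 in H446 and 519, 539 and 541 in A549. The H446 libraries lay above all others, and those of BEAS-2B and A549 overlapped. Folds between lines are ratios of mean FPKM, and log2 values are differences of log2(FPKM + 1), which are smaller for genes at a low level. The level of KRT8 was 2.62-fold higher in H446 than in BEAS-2B (1.39 on the log2 scale, SE 0.05, limma adjusted p = 5.9e-11), and A549 differed from BEAS-2B by 0.03 (SE 0.05, limma adjusted p = 0.589). That last comparison of lines was past the threshold after a trend with GC content was removed (0.17, adjusted p = 0.00558) and after quantile normalization (0.16, 0.0121). KRT8 ranked 31 among all genes in each H446 control and between 116 and 142 in the controls of BEAS-2B and A549.

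KRT18, the partner of KRT8, was 464, 493 and 491 FPKM in the BEAS-2B controls, 1187, 1203 and 1230.1 in H446 and 348, 369 and 342 in A549. The groups did not overlap, and H446 was again highest. The KRT18 level was 2.50-fold higher in H446 than in BEAS-2B (log2 1.32, SE 0.05, limma adjusted p = 7.4e-11) and 1.37-fold higher in BEAS-2B than in A549 (limma adjusted p = 2.8e-06). KRT7 was 317, 326 and 302 FPKM in BEAS-2B, 1332, 1309 and 1371 in H446 and 814, 856 and 831 in A549. For KRT7 the order was thus H446, A549 and BEAS-2B, with a gap at each step. KRT7 was 4.24-fold higher in H446 than in BEAS-2B (limma adjusted p = 9.8e-13), 2.65-fold higher in A549 than in BEAS-2B (4.2e-11) and 1.60-fold higher in H446 than in A549 (5.2e-08).

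KRT19, the smallest keratin, which lacks the tail of its relatives, was highest in A549 and lowest in H446. It was 24.8, 26.2 and 27.4 FPKM in the A549 controls, 9.73, 10.5 and 9.18 in BEAS-2B and 2.47, 2.31 and 2.10 in H446. The KRT19 level was 11.4-fold higher in A549 than in H446 as a ratio of mean FPKM (3.04 as a difference of log2(FPKM + 1), SE 0.07, limma adjusted p = 2.7e-13) and 4.27-fold higher in BEAS-2B than in H446 (8.0e-11). KRT80 was 121, 120.2 and 120.3 FPKM in H446, 49.3, 46.3 and 51.3 in A549 and 21.5, 24.3 and 19.7 in BEAS-2B. KRT80 was 5.51-fold higher in H446 (limma adjusted p = 2.2e-12) and 2.24-fold higher in A549 (3.3e-09) than in BEAS-2B.

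KRT17 separated A549 from the other lines. It was 763, 721 and 792 FPKM in the H446 controls, 162, 174 and 159 in BEAS-2B and 0.09, 0.18 and 0.14 in A549. The level in H446 was 4.597-fold that in BEAS-2B (log2 2.19, SE 0.05, limma adjusted p = 6.0e-13). In A549 KRT17 lay under the minimum for a test and entered the fit only through the other lines, so its calls against A549 were fixed by the filter. KRT14 was 2.28, 1.97 and 2.25 FPKM in the H446 controls and was listed at 0 in every BEAS-2B and A549 library. KRT5, its type II partner in basal cells, was above 0 in 2 of 18 libraries and reached at most 0.03 FPKM. KRT6A was above 0 only in the 6 H446 libraries, with 0.57 FPKM at most, and KRT15 reached at most 0.48 FPKM, in an irradiated A549 library.

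Of the 7 members in these tests, 5 differed between A549 and BEAS-2B, 7 between H446 and BEAS-2B and 7 between A549 and H446. KRT14 entered them only through H446, the 1 line where it is above 0, so its call against each of the other lines was fixed by the filter, as were the 2 calls of KRT17 against A549, and A549 and BEAS-2B had no KRT14 level to compare. These counts stand against 85.1%, 82.6% and 84.4% of all genes in the same comparisons, so differences between lines were common over the whole table too. Within the controls the order of levels was KRT8, KRT18, KRT7, KRT17, KRT80 and KRT19 in BEAS-2B, with no overlap between neighbours. In H446 it was KRT8, KRT7, KRT18, KRT17, KRT80, KRT19 and KRT14, where KRT8 and KRT7 overlapped, as did KRT19 and KRT14. In A549 it was KRT7, KRT8, KRT18, KRT80 and KRT19, with no overlap between neighbours. KRT7 made up 46.5% of the summed FPKM of the members in A549, 27.9% in H446 and 20.8% in BEAS-2B.

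**Figure D1:**
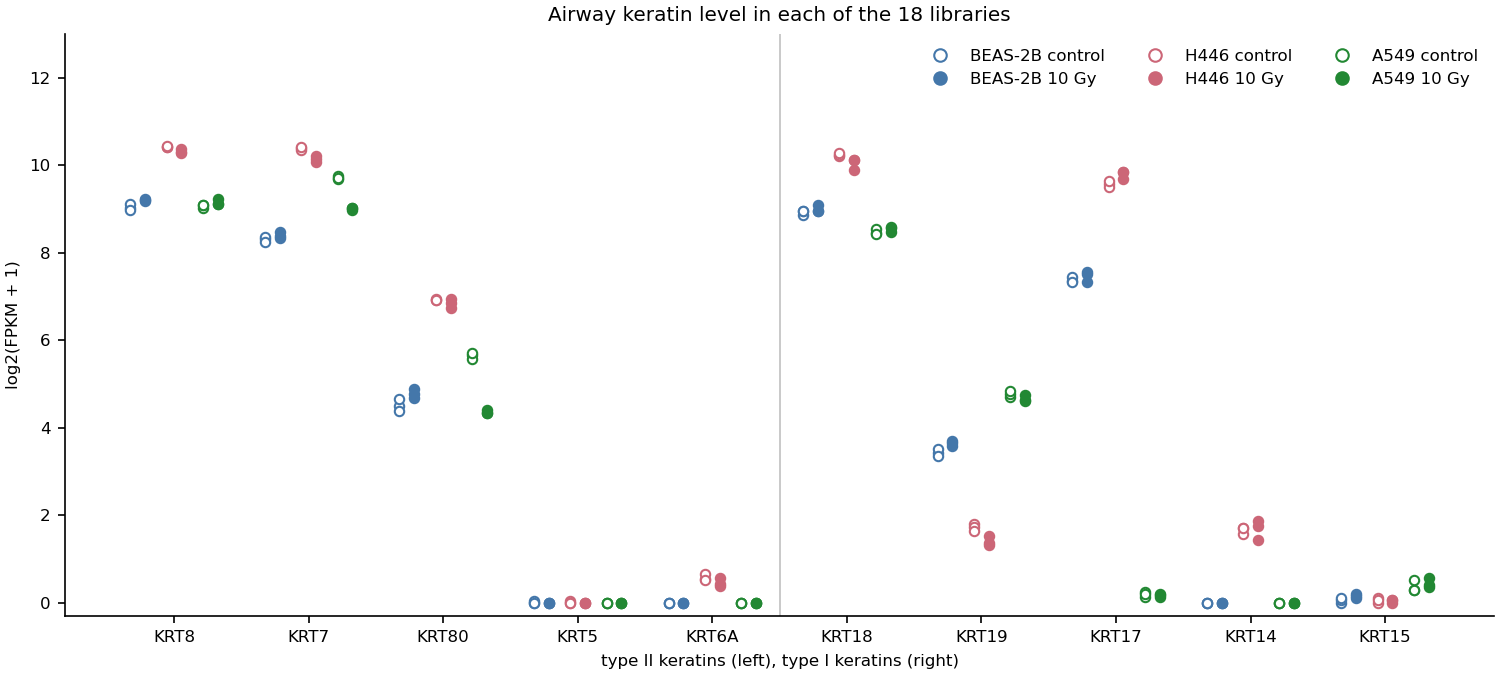
Level of each member as log2(FPKM + 1), with 1 point per library (open for control, filled for 10 Gy) and a colour per line, type II on the left and type I on the right. KRT17 was between 159 and 915 FPKM in BEAS-2B and H446 and at most 0.18 in A549, and KRT5 lay at or near 0 in every line.

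KRT7 and KRT80 fell in A549 cells after 10 Gy. KRT7 was 814, 856 and 831 FPKM in the controls and 518, 514 and 498 in the irradiated libraries. All irradiated libraries lay far below all controls. The mean fell by 38.8%, from 834 ± 21.4 (SD, n = 3) to 510.1 ± 10.99 FPKM (SD, n = 3), and the log2 change was -0.71 (SE 0.04, limma adjusted p = 3.3e-08). KRT80 was 49.3, 46.3 and 51.3 FPKM before and 20.2, 19.3 and 19.1 after irradiation, again with a wide gap. Its mean fell by 60.1%, from 49.0 ± 2.54 to 19.5 ± 0.60 FPKM (SD, n = 3 each), with a log2 change of -1.28 (SE 0.05, limma adjusted p = 1.7e-09). In RNA from whole cultures, fewer cells that make a transcript and less of it in each cell cannot be told apart.

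KRT8, KRT18 and KRT19 did not pass the threshold in A549. KRT8 was 519, 539 and 541 FPKM in the A549 controls and 555, 595 and 548 after irradiation. The groups did not overlap, with the irradiated libraries higher, but the log2 change of 0.09 (SE 0.04) missed the threshold (limma adjusted p = 0.0989) and was -0.04 after quantile normalization. KRT18 was 348, 369 and 342 FPKM before and 378, 383 and 354 after, where the groups overlapped, with a log2 change of 0.07 (SE 0.04, limma adjusted p = 0.172) that was -0.02 after quantile normalization. KRT19 was 24.8, 26.2 and 27.4 FPKM before and 23.3, 25.7 and 23.7 after, which also overlapped, with a change of -0.11 (SE 0.05, limma adjusted p = 0.1005) that was -0.15 (0.0381) without 10 Gy replicate 2. KRT17 stayed at most at 0.14 FPKM and KRT15 ran from 0.29 to 0.48 FPKM in the irradiated libraries, both under the minimum for a test.

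Of the 5 members tested in A549, 2 passed the threshold, both lower. Over all genes 51.7% passed and 26.4% passed as lower. Groups did not overlap for 3 of the 5, against 58.5% of all genes. These shares are read against the wide response of the line, and a count of 2 in 5 is near the background. KRT7 and KRT80 passed in every alternative run, with any 1 library left out as well.

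KRT81, a type II keratin of hair that is no member, was the 1 other keratin with a mean of at least 10 FPKM in any line. It lies between KRT7 and KRT8 on chromosome 12 at chr12:52285913-52291534. KRT81 was 1637, 1722 and 1705 FPKM in the A549 controls and 1012, 1006 and 984 after irradiation. Its mean fell by 40.7% (log2 change -0.75, SE 0.04, limma adjusted p = 3.0e-08), and the groups were far apart. KRT81 shares 38.4% of its 50-base windows with KRT86, which was listed at 0.96 ± 0.14 FPKM in the controls (SD, n = 3), so its level depends on how shared reads were assigned. KRT80, KRT7 and KRT81 lie in that order on chromosome 12, and all 3 transcripts fell in A549. KRT86, which lies beside KRT81, was 0.96 FPKM in the A549 controls and 0.94 after irradiation, too low for a test. KRT8 and KRT18 of the same cluster did not pass in A549. KRT10, the type I keratin of differentiated epidermis, fell in A549 from 9.91 ± 0.41 to 6.99 ± 0.64 FPKM (SD, n = 3 each, log2 change -0.45, SE 0.07, limma adjusted p = 0.000146). In H446 the hair keratin KRT34 was 0.59 ± 0.09 FPKM in the controls and 1.19 ± 0.16 after irradiation, and entered the test only through the irradiated libraries, while KRT10 (-0.20, 0.168) and KRT16 (0.16, 0.220) did not pass. KRT16 passed with the GC trend removed (0.33, 0.0159).

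**Figure D2:**
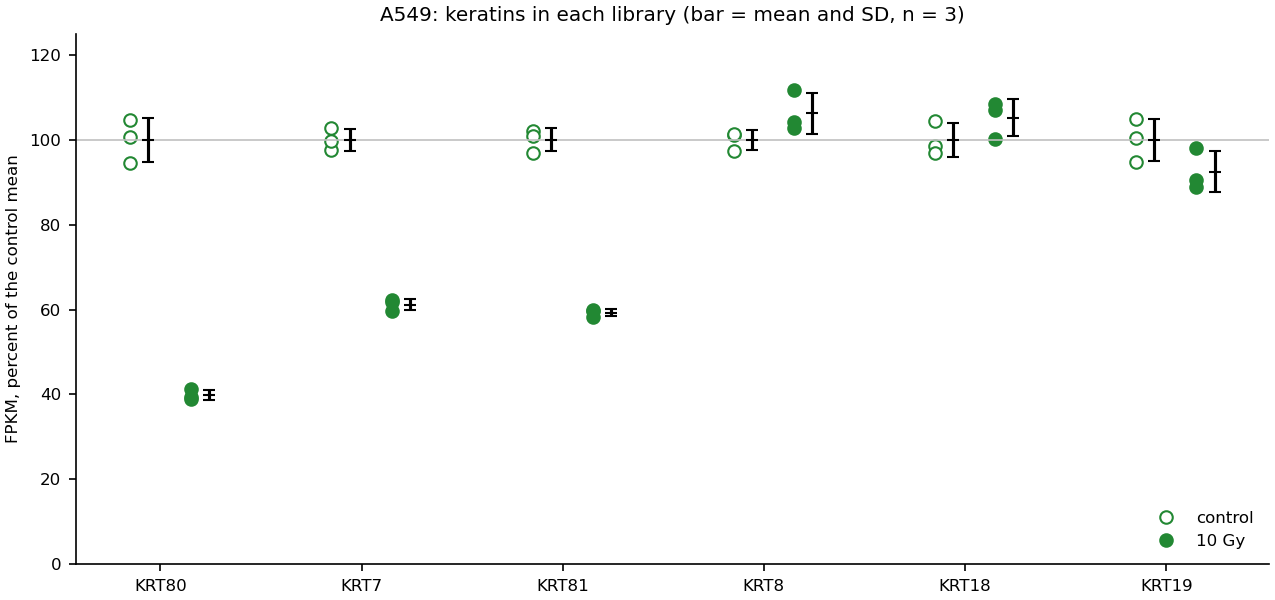
FPKM of A549 libraries as a percent of the control mean of each gene, with 1 point per library (open for control, filled for 10 Gy) and the mean and SD of each group (n = 3). KRT80 fell by 60.1%, KRT7 fell by 38.8% and KRT81 fell by 40.7%, and the points of KRT8, KRT18 and KRT19 stayed near the control mean.

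KRT17 rose in H446 cells after 10 Gy, while KRT7, KRT18 and KRT19 fell. KRT17 was 763, 721 and 792 FPKM in the controls and 915, 817 and 909.8 in the irradiated libraries. Every irradiated library was higher than every control. The mean rose by 16.1%, from 759 ± 35.6 to 881 ± 55.1 FPKM (SD, n = 3 each), a log2 change of 0.21 (SE 0.05, limma adjusted p = 0.0110). Without control replicate 2 the adjusted p was 0.0547. KRT7 was 1332, 1309 and 1371 FPKM before and 1182, 1075 and 1125 after, with no overlap. It fell by 15.7% (log2 change -0.25, SE 0.05, limma adjusted p = 0.00265).

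KRT18 was 1187, 1203 and 1230.1 FPKM in the H446 controls and 1109.8, 1100.2 and 949 after irradiation. The irradiated libraries were lower, replicate 3 most of all, and the change was -0.20 (SE 0.06, limma adjusted p = 0.0229). Leaving out 1 library at a time kept the call for KRT18 in 2 of 6 fits, and without 10 Gy replicate 3 the change was -0.13 and missed the threshold. KRT8 was 1359, 1352 and 1393 before and 1314, 1246 and 1257 after, without overlap, and its change of -0.11 (SE 0.04) did not pass (limma adjusted p = 0.0750). KRT19 was low in this line, at 2.47, 2.31 and 2.10 FPKM before and 1.51, 1.57 and 1.86 after. All irradiated libraries were lower, the mean fell by 28.2% (log2 change -0.32, SE 0.08, limma adjusted p = 0.0131), and the call was kept in 5 of 6 fits with a library left out.

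KRT80 was 121, 120.2 and 120.3 FPKM in the H446 controls and 121, 105 and 114 after irradiation. These groups overlapped, and the change was -0.09 (SE 0.05, limma adjusted p = 0.154). It was -0.14 (0.0233) without 10 Gy replicate 1 and -0.039 without 10 Gy replicate 2, so single libraries decide it. KRT14 was 2.28, 1.97 and 2.25 FPKM before and 2.64, 1.69 and 2.38 after, with the irradiated libraries on both sides of the controls (log2 change 0.02, SE 0.11, limma adjusted p = 0.892). KRT6A ran from 0.44 to 0.57 FPKM before and from 0.31 to 0.49 after, under the minimum for a test.

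Of the 7 members tested in H446, 4 passed the threshold, 1 higher and 3 lower. Over all genes 38.4% passed, 14.8% as higher and 23.6% as lower. The groups did not overlap for 5 of the 7, against 50.3% of all genes. The H446 libraries differed in how their values followed the GC content of transcripts. Spearman's rho of each library's deviation with GC content was 0.35 to 0.46 in the controls and -0.50 to -0.11 in the irradiated libraries, a description across genes, which are not independent replicates. The member transcripts are GC-rich, from 55.7% for KRT18 to 62.9% for KRT7, which is above 71.0% and 92.3% of genes.

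After removal of the trend, 1 of 7 members passed, against 31.0% of all genes. KRT17 then rose by 0.35 (SE 0.05, limma adjusted p = 0.000992). The log2 difference was -0.06 for KRT7 (adjusted p = 0.363), -0.09 for KRT18 (0.235), -0.14 for KRT19 (0.253), 0.01 for KRT8 (0.921), 0.03 for KRT80 (0.587) and 0.18 for KRT14 (0.196), and none of these passed. The rise of KRT17 was therefore larger without the trend, and the falls of KRT7, KRT18 and KRT19 in H446 passed only with it. Whether the trend arose in the libraries or in the irradiated cells cannot be told apart, since it divides the controls from the irradiated samples.

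**Figure D3:**
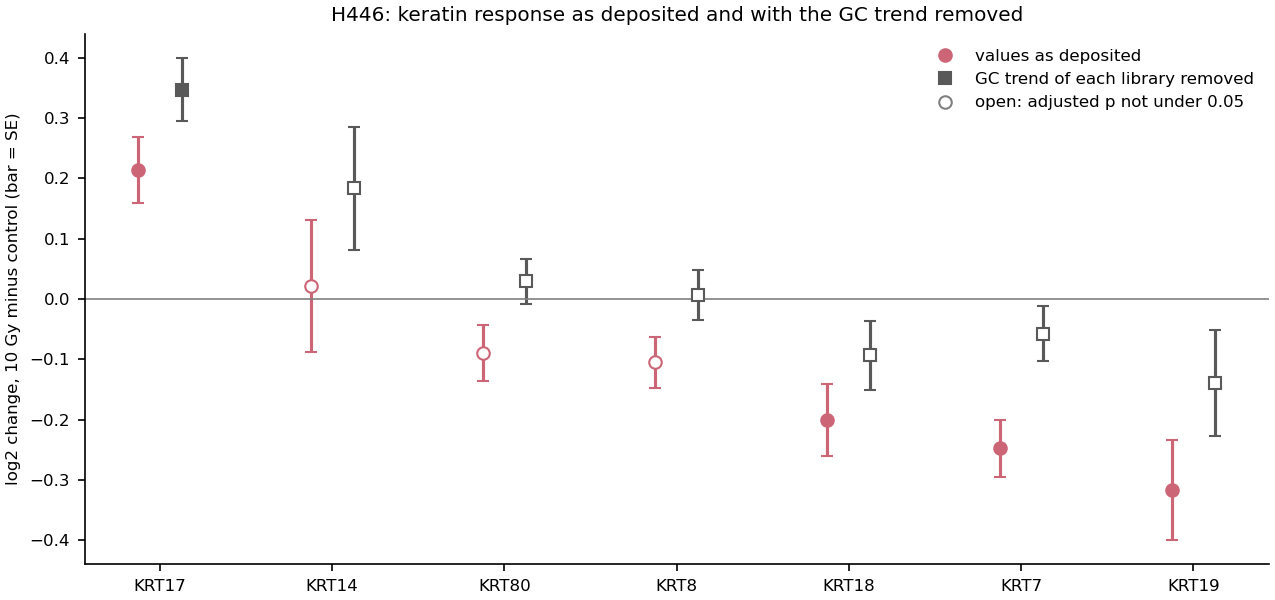
Log2 change with SE after 10 Gy in H446 for the 7 members tested, from the values as deposited (circles) and without the trend with GC content (squares), open where the adjusted p was not under 0.05. KRT17 lay above 0 both ways, at 0.21 and 0.35, and KRT7 lay at -0.25 and -0.06.

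No member passed the threshold in BEAS-2B. With limma 0 of 6 members and 0% of 11734 genes passed, while 2 members and 1446 genes had an unadjusted p under 0.05. KRT80 was 21.5, 24.3 and 19.7 FPKM without and 26.4, 28.6 and 24.5 FPKM with radiation. Every irradiated library was higher than every control, by 21.3% in the mean (log2 change 0.27, SE 0.09, limma adjusted p = 0.295). KRT8 was 517, 548 and 500.3 FPKM before and 596, 592 and 575 after, again without overlap (log2 change 0.17, SE 0.08, limma adjusted p = 0.407). KRT19 was 9.73, 10.5 and 9.18 FPKM before and 11.5, 12.01 and 10.9 after, also without overlap (log2 change 0.21, SE 0.08, limma adjusted p = 0.353).

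The groups of KRT7, KRT18 and KRT17 overlapped in BEAS-2B. KRT7 was 317, 326 and 302 FPKM before and 323, 356 and 331 after (log2 change 0.09, SE 0.08, limma adjusted p = 0.612). KRT18 was 464, 493 and 491 before and 491, 543 and 493 after (0.08, SE 0.08, 0.7003). KRT17 was 162, 174 and 159 before and 188, 182 and 160.0 after (0.10, SE 0.08, 0.630). KRT15 stayed at most at 0.14 FPKM, and KRT6A and KRT14 were listed at 0 throughout.

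The groups of 3 of 6 members did not overlap in BEAS-2B, against 16.4% of all genes. With the spread shared over all 18 libraries, 2 members passed, KRT8 (adjusted p = 0.0428) and KRT80 (0.0252), against 7.01% of all genes. Without 10 Gy replicate 2, the library whose p53 targets were near the control level, 0 members passed against 1.99% of genes, and the changes were 0.22 for KRT80 (adjusted p = 0.423) and 0.17 for KRT8 (0.549). The median change of the 6 members against the control mean was 0.19, 0.18 and 0.11 in the 3 irradiated libraries. Replicate 2 was the highest irradiated library for KRT7, KRT18, KRT19 and KRT80, and without it the change was 0.03 for KRT18 and 0.05 for KRT7. Spearman's rho with GC content ran from -0.63 to 0.01 in the controls and from -0.31 to 0.70 in the irradiated libraries of this line. After removal of the GC trend the log2 difference was 0.19 for KRT80, 0.09 for KRT8, 0.09 for KRT19, 0.0048 for KRT17, 0.0011 for KRT18 and -0.03 for KRT7, and none passed. The part of this trend in the changes was not tested further.

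**Figure D4:**
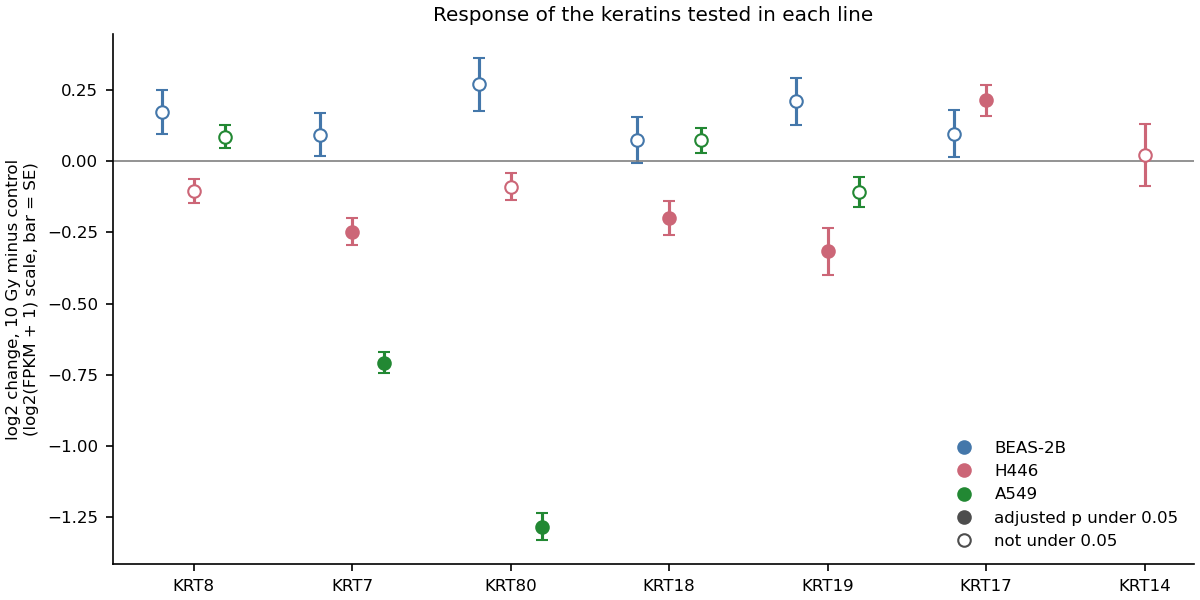
Log2 change with SE after 10 Gy for each member tested in BEAS-2B, H446 and A549, with filled points for an adjusted p under 0.05. KRT80 at -1.28 and KRT7 at -0.71 in A549 lay apart from all other points.

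The responses themselves were compared in 1 fit of all 18 libraries, where comparisons that share a line share its libraries. The KRT7 response of A549 was lower than that of BEAS-2B by 0.80 on the log2 scale (-0.80, SE 0.07, limma adjusted p = 3.5e-07) and differed from that of H446 by -0.46 (SE 0.07, 0.000107). The KRT80 response of A549 differed from that of BEAS-2B by -1.55 (SE 0.10, 5.2e-09) and from that of H446 by -1.19 (SE 0.10, 1.1e-07). These 4 differences held in every alternative run and with any 1 library left out. KRT19 differed between A549 and BEAS-2B by -0.32 (SE 0.10, 0.0195), which was -0.18 (0.175) with the GC trend removed. That call was also lost after quantile normalization. It passed in 6 of 9 settings and in 16 of 18 fits with a library left out.

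Between H446 and BEAS-2B, 5 of 7 members differed in response, all lower in H446. The differences were -0.34 for KRT7 (adjusted p = 0.00360), -0.28 for KRT8 (0.00920), -0.28 for KRT18 (0.0311), -0.53 for KRT19 (0.00157) and -0.36 for KRT80 (0.0155). The KRT18 call was lost in 5 of 18 fits with a library left out, and the KRT8 call after quantile normalization. With the GC trend removed none of the 5 passed, and KRT17 did, at 0.33 (adjusted p = 0.00804), when 1385 of 12930 genes passed. Between A549 and H446, 5 of 7 passed as well, KRT7 and KRT80 as above, with 0.27 for KRT18 (0.0212), 0.19 for KRT8 (0.0388) and -0.23 for KRT17 (0.0463). The KRT8 and KRT17 differences each passed in 4 of 9 settings and in 8 of 18 fits with a library left out, and that of KRT18 was lost after quantile normalization and with the GC trend removed (0.19, 0.0648). KRT17 was at most 0.18 FPKM in A549 and entered this test only through the other lines, so its value restates the response of H446 and does not compare the lines. Between A549 and BEAS-2B, 3 of 7 passed, where KRT14, at 0 in both lines, and KRT17, under the minimum in A549, had no pair of responses to compare. Over all genes the shares were 30.6% for A549 against BEAS-2B, 22.7% for H446 against BEAS-2B and 34.6% for A549 against H446.

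The 5 type I and 5 type II members were added by type as a description, with no test. The type II members summed to 1416 ± 30.5 FPKM in the A549 controls and to 1096 ± 32.2 after irradiation (SD, n = 3 each), while the type I members summed to 379 ± 14.0 and 396 ± 16.3. The ratio of type II to type I members was 3.73 ± 0.10 before and 2.77 ± 0.05 after in A549. It was 1.43 ± 0.01 and 1.30 ± 0.04 in H446 and 1.31 ± 0.05 and 1.36 ± 0.04 in BEAS-2B. In A549 the fall of the ratio largely restates that of KRT7, from 834 to 510.1 FPKM. The sums keep the GC trend. With it removed, the H446 log2 changes were -0.06 for KRT7, 0.01 for KRT8 and 0.03 for KRT80. With all keratins of the table included the A549 ratio was 7.97 ± 0.24 and 5.20 ± 0.11, mostly through KRT81. By summed FPKM the type II members thus lay above type I in every group, with the largest excess in A549. KRT8 and KRT18 enter these sums, which therefore also depend on how shared reads were assigned. The members made up 0.365% of the summed FPKM of A549 controls and 0.301% after irradiation, 1.01% and 0.950% in H446 and 0.297% and 0.326% in BEAS-2B.

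The ratio of KRT8 to KRT18, which form a pair in the filament, was 1.08 ± 0.05 before and 1.16 ± 0.06 after in BEAS-2B (SD, n = 3 each; exact permutation test, two-sided, p = 0.3). It was 1.13 ± 0.01 and 1.21 ± 0.10 in H446 (exact p = 0.3) and 1.51 ± 0.06 and 1.52 ± 0.05 in A549 (exact p = 0.9). The 3 exact p-values adjusted to 0.45, 0.45 and 0.9, and 3 libraries against 3 cannot give a p below 0.1. The listed level of KRT8 was thus above that of KRT18 per length in all groups, most in A549. Both levels depend on how shared reads were assigned, so an excess of KRT8 transcripts is not settled.

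**Figure D5:**
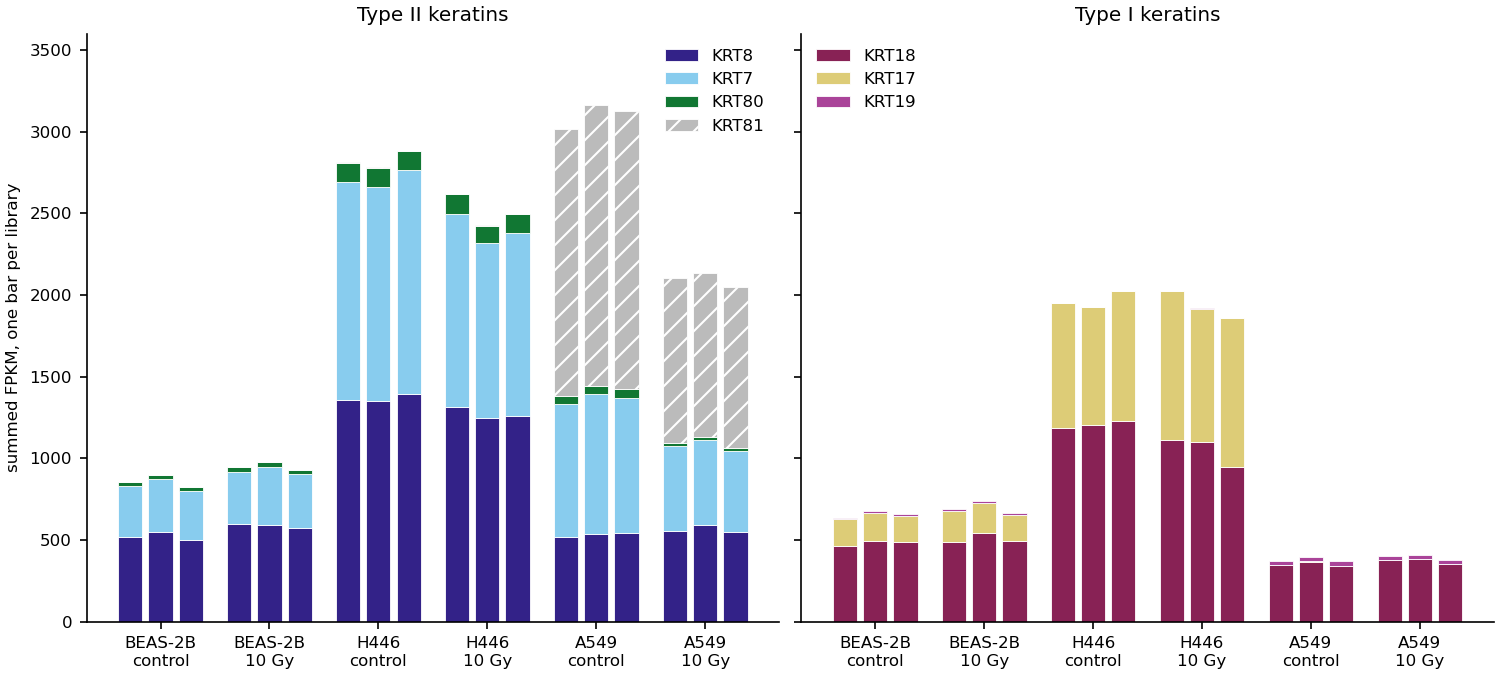
Stacked FPKM of the more abundant keratins, 1 bar per library, with type II on the left and type I on the right, on the same axis from 0. KRT81 (hatched) is no member, and the type II bars of A549 were lower after irradiation while the type I bars were not.

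The keratin filament is anchored at desmosomes between cells and at hemidesmosomes on the matrix. Of 14 desmosome genes, 6 rose and 2 fell among 9 tested in A549 (median change 0.22), 3 rose and 1 fell among 10 in H446 (0.04), and 0 of 11 passed in BEAS-2B (0.08). The median of all genes was -0.0040, -0.03 and 0.0019 in these lines. The counts of these and the following lists stand against 51.7% of all genes called in A549, with 26.4% of all genes called lower, and against 14.8% called higher and 23.6% called lower in H446. PERP, a desmosome membrane protein and p53 target, rose in A549 from 139 ± 4.25 to 177 ± 2.67 FPKM (SD, n = 3 each, log2 change 0.35, limma adjusted p = 8.8e-06) and in H446 from 289 to 328 FPKM (0.18, 0.00222). DSG2, a desmosomal cadherin, rose in A549 from 24.0 to 30.6 FPKM (0.34, 0.000322) and in H446 from 76.4 to 89.7 (0.23, 0.00113). JUP, the plakoglobin of the desmosome plaque, rose in A549 from 39.8 to 47.9 FPKM (0.26, 0.000484) and had a log2 difference of 0.03 in H446 (0.503), which was 0.21 (0.00118) with the GC trend removed. In A549 these desmosome genes rose while KRT80, which is found near desmosomes, fell.

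Of 9 hemidesmosome genes, 4 rose and 3 fell among 8 tested in A549 (median 0.11), 2 rose and 3 fell among 7 in H446 (-0.11), and 0 of 7 passed in BEAS-2B (0.15). PLEC, the plectin that links keratin to integrins, fell in A549 from 55.0 to 45.5 FPKM (log2 change -0.27, limma adjusted p = 0.000119), and CD151, a tetraspanin of the complex, fell from 151 to 121 FPKM (-0.32, 9.2e-05). In H446 CD151 fell from 104 to 90.4 FPKM (-0.20, 0.00333), a change of -0.01 with the GC trend removed, and ITGA6, the laminin-binding integrin subunit, rose from 49.1 to 54.3 FPKM (0.14, 0.00938). Of 6 genes for proteins that bind keratins, 2 rose and 2 fell among 5 tested in A549, 1 rose and 3 fell among 6 in H446 and 0 of 5 passed in BEAS-2B, with medians of -0.14, -0.15 and 0.06. SFN, the 14-3-3 sigma protein that binds KRT17 and KRT18, moved in opposite directions, rising in A549 from 34.3 to 52.4 FPKM (0.60, 4.2e-07) and falling in H446 from 110.1 to 70.3 (-0.64, 8.4e-07). DNAJB6, a chaperone of KRT18, fell in A549 (-0.29, 4.1e-05) and rose in H446 (0.21, 0.00293), and PNN fell in both (-0.24, 0.000135 and -0.15, 0.0117). Once the GC trend was removed, the H446 counts were 5 higher and 0 lower for desmosome genes and 3 and 2 for hemidesmosome genes. They were 2 and 2 for genes of keratin-binding proteins. Over all genes tested in H446, 1850 of 11380 then passed as higher and 1680 as lower.

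Of 13 genes for other intermediate filaments, 3 rose and 2 fell among 9 tested in A549 (median -0.05), 0 rose and 3 fell among 8 in H446 (-0.05) and 0 of 5 passed in BEAS-2B (0.06). VIM, the vimentin of mesenchymal and cultured cells, was abundant in all lines. It fell in A549 from 1471 ± 46.0 to 1343 ± 16.98 FPKM (SD, n = 3 each, log2 change -0.13, limma adjusted p = 0.0161) and had log2 differences of 0.06 in H446 (0.273) and 0.06 in BEAS-2B (0.832). LMNA, the nuclear lamin A/C gene, rose in A549 from 164 to 186 FPKM (0.18, 0.00174). LMNB1 fell in H446 (-0.22, 0.00136). In H446, removal of the GC trend gave 1 gene higher, LMNA (0.17, 0.00517), and 2 lower. Of 12 transcription factors of epithelium, 3 rose and 2 fell among 7 tested in A549, 3 rose and 1 fell among 6 in H446 and 0 of 5 passed in BEAS-2B (medians 0.09, 0.16 and 0.18). KLF5, a factor of basal and airway progenitor cells, fell in A549 from 24.4 to 19.97 FPKM (-0.28, 0.000922) and rose in H446 from 106 to 123 FPKM (0.22, 0.00140). KLF4, a factor of epithelial differentiation, moved likewise, falling in A549 (-0.24, 0.00509) and rising in H446 (0.22, 0.00971). In BEAS-2B KLF4 was 1.49 FPKM before and 2.26 after, without overlap (log2 change 0.39, limma adjusted p = 0.241). Its log2 change was 0.44 without 10 Gy replicate 2. TFAP2A fell in H446 (-0.25, 0.000649).

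Of 6 general epithelial markers, CDH1, the E-cadherin of adherens junctions, rose in A549 from 7.05 to 10.3 FPKM (log2 change 0.49, limma adjusted p = 7.9e-05), and CLDN4, the other of 2 tested, entered only through the irradiated libraries (0.73 and 1.26 FPKM). In H446 CLDN4 rose (0.17, 0.0187) and ESRP2 fell (-0.16, 0.0323, and 0.949 with the GC trend removed) among 3 tested, and 0 of 3 passed in BEAS-2B. The summed level of these markers was 8.83 to 9 FPKM in the A549 controls and 11.9 to 13.8 after irradiation, and their part in the keratin results was not tested. Fibroblast markers summed to 12.6 to 13.9 FPKM in the A549 controls and 14.3 to 15.7 after irradiation, to 23.7 to 26.0 and 29.1 to 29.7 in H446 and to 21.6 to 27.5 and 21.1 to 27.9 in BEAS-2B. Leukocyte markers summed to 26.5 to 29.6 FPKM in the A549 controls and to 29.7 to 33.5 after irradiation, nearly all CD68, which is also made by other cells and rose from 27.6 to 31.0 FPKM (0.16, 0.0363), while PTPRC was at most a trace in every line. All 10 p53 targets rose in A549 (median 1.49), 2 rose and 1 fell in H446 (median -0.05), and 0 passed in BEAS-2B (median 0.75). In BEAS-2B 10 Gy replicate 2 was singled out by these genes, and the log2 changes without it, given with no test, were 2.196 for CDKN1A, 1.04 for FDXR and 0.65 for DDB2.

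Over the 18 libraries the genes most like KRT7 in level were DNAJA3, AVPI1 and LMO4, with Pearson's r of 0.994, 0.991 and 0.989 on the log2 scale. For KRT8 they were led by LAMB3 (0.996), for KRT18 by CKB (0.996), for KRT19 by PLAU (0.996), for KRT17 by OLR1 (0.9996), for KRT14 by LUZP2 (0.997) and for KRT80 by MYC (0.990). The points share their lines, and these values mainly repeat the order of the lines. With the mean of each line removed, KRT7 was most like SLC1A4, PHGDH and PSAT1 (0.983, 0.982 and 0.982) and KRT80 was most like TRIB3, YWHAH and ETS2 (0.981, 0.981 and 0.980). KRT7 and KRT80 themselves had an r of 0.952 on that scale, which rests largely on their fall in A549, and KRT8 and KRT18 had 0.637. The other leaders were lower, with VOPP1 for KRT8 (0.907), ABHD12 for KRT18 (0.904), SLC2A5 for KRT14 (0.885, which rests on the 6 H446 libraries), CD177 for KRT19 (0.881) and TACC3 for KRT17 (0.846). These are descriptions over 13071 genes and carry no test.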

How the data were processed

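RNA was measured in 3 control and 3 irradiated libraries (10 Gy, 24 h) of BEAS-2B, H446 and A549 cells. Per the labels and the methods, poly(A) libraries were sequenced as single-end reads of 50 bases, and the submitters' processing notes name HISAT2 2.0.4, Bowtie2 2.2.5, RSEM 1.2.12 and hg38. The authors deposited 1 table with a column per library, whose values are taken to be FPKM. That unit was inferred from the values, since no source names it. Per-library depth is unknown, so no counting interval is given. Between any pair of libraries at most 3.10% of non-zero values were equal.

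Groups and replicate numbers came from the labels. Values were transformed to log2(FPKM + 1), so changes of low genes are understated. For each line, genes with at least 1 FPKM in at least 3 of its libraries were tested with limma 3.58.1 in R 4.3.3 (lmFit, eBayes with a trend on the mean). Benjamini-Hochberg adjustment ran over all genes tested, with a threshold of 0.05. Levels of the unirradiated lines were compared in a fit of the control libraries, and differences of response in a fit of all 18. Of the 10 members, 7 passed the filter in at least 1 line. The ratio of KRT8 to KRT18 was compared by an exact permutation test. Fits were checked on simulated data with known changes larger than most reported here and without a GC trend. Changes of the size seen for the members in H446 and BEAS-2B were not simulated.

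All 10 members matched a GENCODE 29 transcript on GRCh38, from which sequences, positions and 50-base windows shared between genes were read. Some of these sequences and genes are not reported here. GC content was available for 96.6% of genes. The GC trend was a loess curve (span 0.5) of each library's deviation. Python 3.11.15 with pandas 2.3.3, numpy 2.4.6, scipy 1.17.1 and matplotlib 3.10.9 was used. The members and gene lists (desmosome, hemidesmosome, keratin-binding proteins, other intermediate filaments, epithelial transcription factors, cell type markers and p53 targets) were chosen with earlier results of these data known. Named genes were the members, the 3 most abundant genes of each list, other keratins with a mean of at least 10 FPKM and the 3 genes most like each member. Alternatives were quantile normalization, equal totals, a pseudocount of 0.1, no filter, no trend, the replicate number as a block, removal of the GC trend, all 18 libraries in 1 fit and each library left out.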

Additional observations from a re-analysis of the deposited data

Results flagged for a closer look

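Differences of response between lines passed limma's test for 13 combinations of a member and a pair of lines, 3 for A549 against BEAS-2B, 5 for H446 against BEAS-2B and 5 for A549 against H446. All values are differences of log2 changes, with the adjusted p of the same fit of 18 libraries. Groups of 3 libraries were not tested for an outlying library.

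For A549 against BEAS-2B the response differed by -0.80 for KRT7 (adjusted p = 3.5e-07), -1.55 for KRT80 (5.2e-09) and -0.32 for KRT19 (0.0195). For H446 against BEAS-2B it differed by -0.34 for KRT7 (0.00360), -0.28 for KRT8 (0.00920), -0.28 for KRT18 (0.0311), -0.53 for KRT19 (0.00157) and -0.36 for KRT80 (0.0155). For A549 against H446 it differed by -0.46 for KRT7 (0.000107), 0.19 for KRT8 (0.0388), -0.23 for KRT17 (0.0463), 0.27 for KRT18 (0.0212) and -1.19 for KRT80 (1.1e-07). Of these last 5, the differences of KRT8 and KRT17 passed in 4 of 9 settings and 8 of 18 fits with a library left out, and that of KRT18 in 6 of 9 and 15 of 18. KRT17 was at most 0.18 FPKM in A549, so its value restates the response of H446. With the GC trend removed none of the 5 differences between H446 and BEAS-2B passed, nor did that of KRT19 between A549 and BEAS-2B. This KRT19 difference passed in 6 of 9 settings and 16 of 18 fits with a library left out.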

How the results depend on the processing

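Of 1143 recomputed values of 56 results for single members, 1043 kept their direction and their side of the threshold, 69 lost the call, 11 gained one and 20 changed sign. With the GC trend removed, alone or with the replicate block, the members called went from 4 to 1 in H446, from 5 to 1 for H446 against BEAS-2B in response and from 5 to 3 for A549 against H446. That last count was also 3 after quantile normalization, with equal totals and with the replicate block alone. With only the GC trend removed, calls over all genes went from 4407 of 11479 to 3530 of 11380 in H446. For the response of H446 against BEAS-2B they went from 2971 of 13071 to 1385 of 12930. For A549 against H446 they went from 4526 of 13071 to 4725 of 12930. All 18 libraries in 1 fit gave 2 calls in BEAS-2B in place of 0. The replicate block left 2 calls in A549, 4 in H446 and 0 in BEAS-2B, where it called 439 of 11734 genes in place of 0. The main fits had no block, since the study states no covariate. Same-numbered libraries correlated between -0.13 and 0.32 in their deviations, with 3 of 9 pairs over 0.1 and no line with all of its pairs over it. In BEAS-2B the values were -0.13, 0.32 and 0.31, which do not settle whether its libraries were paired.

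With a library left out, the members called ranged from 2 to 5 in H446, 2 to 3 in A549, 0 to 0 in BEAS-2B, 2 to 3 for A549 against BEAS-2B, 4 to 5 for H446 against BEAS-2B and 2 to 5 for A549 against H446 in response. Levels between controls gave 5 to 5, 6 to 7 and 6 to 7 for A549 against BEAS-2B, H446 against BEAS-2B and A549 against H446. The change of the KRT8 to KRT18 ratio ranged from -0.012 to 0.048 in A549, 0.044 to 0.11 in BEAS-2B and 0.024 to 0.12 in H446, that of KRT14 in H446 from -0.069 to 0.15, and the KRT18 response of A549 minus BEAS-2B from -0.027 to 0.046.

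Signs also changed after quantile normalization for KRT18 (-0.023) and KRT8 (-0.038) in A549 and for KRT8 in A549 minus H446 (-0.012). With the GC trend removed, alone or with the replicate block, they changed for KRT80 (0.029) and KRT8 (0.0065) in H446, KRT7 in BEAS-2B (-0.028), and KRT18 (0.088) and KRT8 (0.0074) in A549 minus BEAS-2B. None of the changes with a new sign passed the threshold in either setting, other than KRT8 in A549 minus H446, which passed as reported. The causes were not tested. The unknown depth limits what can be said of KRT5, KRT6A, KRT14 and KRT15, since a value of 0 has no limit of detection attached.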
